A study of Mus musculus with 2 samples.

Results

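The insulin-like growth factor (IGF) axis was examined in 2 RNA sequencing libraries of mouse chondrocytes, as 10 genes chosen by name: the ligand genes Igf1 and Igf2, the receptor genes Igf1r and Igf2r, and the binding protein genes Igfbp2 to Igfbp7. All 10 were among the 13138 genes of the deposited table, and all 10 lay above the minimum mean of 50 normalized counts (5.64 as a log2 value) that left 12809 genes for comparison. The cells were primary C57Bl/6 chondrocytes grown outside the body as micromass cultures, dense drops of cells that form cartilage-like nodules. The Cre-labelled library came from a culture given adenovirus carrying Cre recombinase and has the genotype label hdac3-knockout. The GFP-labelled library came from a culture given a control adenovirus carrying green fluorescent protein and has the genotype label wild-type. The source name of each sample mentions a histone H3 lysine 27 acetylation ChIP, while the title, the molecule and the library source are those of RNA sequencing, as which the values are taken. The sources used here do not state age, sex, the number of animals or which part of Hdac3 Cre removes. The total for Hdac3 over the whole gene was level, at a log2 value of 10.68 for Cre and 10.69 for GFP, so it did not bear out the genotype label, and the libraries are named by label only. Each group had 1 library, so no difference below has a replicate check or a p-value, and each one compares 2 libraries rather than 2 conditions. Values are log2 normalized counts as the authors deposited them, and the read depth behind them is unknown. Differences are Cre minus GFP on the log2 scale, and folds are folds of these transformed values.

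IGF1 and IGF2 are secreted peptides that drive growth of cartilage and many other tissues by activating the IGF1 receptor, a tyrosine kinase that signals through insulin receptor substrates, PI3K and AKT. The IGF2 receptor, which is also the cation-independent mannose 6-phosphate receptor, carries IGF2 to lysosomes for breakdown. The IGF binding proteins hold the ligands outside the cell, where they can withhold them from the receptor or keep a local store, and proteases such as PAPP-A cut binding proteins and release the ligand.

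The differences past 1.5-fold were all in binding protein genes. Igfbp2 and Igfbp5 were lower and Igfbp3 was higher in the Cre-labelled library, each by more than 1.5-fold, whereas the ligand and receptor genes all differed by less than 0.25 on the log2 scale. Of the 10 genes, 4 lay above 0 and 6 below 0, beside 49.9% and 50.1% of all genes. At 2-fold, 0 of the 10 were called, where 0.804% of all genes compared were. At 1.5-fold, 1 was higher and 2 were lower, where 2.25% of all genes were higher and 0.952% lower (3.2% in either direction). The median difference over the 10 genes was -0.11 with a range from -0.89 to 0.78, beside a median of -0.00041 over all genes compared.

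The sequences just before the starts of the 3 genes past 1.5-fold are shown because these genes carry the differences of the axis. They are RefSeq sequences of build GRCm38.p6, read 5′ to 3′ on the strand of the gene, and any base inside the GENCODE gene was left out. They lie at chr1:72824230-72824479 on the plus strand for Igfbp2 (250 bases), at chr1:72874885-72875115 on the minus strand for Igfbp5 (231 bases) and at chr11:7213924-7214173 on the minus strand for Igfbp3 (250 bases). Capitals mark matches to any of 7 words searched on both strands, which were the TATA-like words TATAAA, then TATATA and then TTTAAA, the GC box word GGGCGG, the AP-1 word TGANTCA, the C/EBP word TTGCNNAA and the NF-kappaB consensus. The words were chosen with the differences known.
Igfbp2: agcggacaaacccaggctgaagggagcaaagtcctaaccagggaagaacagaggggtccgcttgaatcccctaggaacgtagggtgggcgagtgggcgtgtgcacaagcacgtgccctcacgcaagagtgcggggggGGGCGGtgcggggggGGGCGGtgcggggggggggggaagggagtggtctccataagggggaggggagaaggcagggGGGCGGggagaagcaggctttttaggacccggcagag
Igfbp5: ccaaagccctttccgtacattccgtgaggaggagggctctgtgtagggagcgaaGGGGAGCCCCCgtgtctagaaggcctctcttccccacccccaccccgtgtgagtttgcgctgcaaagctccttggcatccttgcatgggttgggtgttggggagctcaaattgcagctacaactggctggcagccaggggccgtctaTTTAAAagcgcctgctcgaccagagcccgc
Igfbp3: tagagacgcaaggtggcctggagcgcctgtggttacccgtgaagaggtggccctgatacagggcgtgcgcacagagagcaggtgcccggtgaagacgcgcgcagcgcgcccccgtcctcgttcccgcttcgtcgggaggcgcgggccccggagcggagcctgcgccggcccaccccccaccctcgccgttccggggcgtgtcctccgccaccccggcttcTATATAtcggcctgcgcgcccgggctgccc
The 3 stretches had different words. Igfbp2 held 3 matches to GGGCGG, each at the end of a run of G, and none of the other words. Igfbp5 held TTTAAA 49 to 44 bases before the RefSeq start, and 2 overlapping matches to the NF-kappaB consensus that together span 196 to 186 bases before it. Igfbp3 held TATATA 30 to 25 bases before its start and no other match. Over all 32851 start windows of 250 bases in the RefSeq table, GGGCGG was found in 32.7%, TTTAAA in 12.1%, TATATA in 5.25% and the NF-kappaB consensus in 7.25%. These matches are descriptions of letters, and binding was not measured. The GC content of the printed stretches was 67.2% for Igfbp2, 60.6% for Igfbp5 and 73.2% for Igfbp3. Over all windows the median was 52.4%, with quartiles of 45.2% and 61.2%. High GC was not particular to these genes, since it was 77.6% for Igf1r, 74% for Igfbp7 and 69.2% for both Igf2r and Igfbp4. It was 52.8% for Igf1, 50.8% for Igf2 and 49.6% for Igfbp6. Of the start windows of the other 7 genes, taken nearest to the GENCODE start, those of Igfbp4 and Igfbp6 each held 1 TATAAA. The window of Igf1 held 1 TGANTCA, but it lies 2846 bases from the GENCODE start. Those of Igf1r and Igfbp6 lie 570 and 176 bases from theirs. The Igfbp2 stretch is from the nearer of 2 start windows for that gene. Igfbp7 held 4 matches to GGGCGG, Igf2r 3 and Igf1r 2, and the Igf2 window nearest to the GENCODE start, 1 of 4 for that gene, held none of the words.

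The ligand genes differed in opposite directions and by similar sizes. Igf2, which encodes the fetal growth factor and is expressed from the paternal allele (chromosome 7, 142650766 to 142666816, minus strand, GRCm38), had a log2 value of 17.25 in the Cre-labelled library and 17.50 in the GFP-labelled library, a difference of -0.25. Igf1, whose product is the main growth hormone-induced growth factor (chromosome 10, 87858265 to 87937042, plus strand), had 12.87 against 12.63, a difference of 0.24. In size these differences ranked 1998 (Igf2) and 2023 (Igf1) of 12809 genes, so 15.6% and 15.8% of genes differed at least as much. Per kilobase of exon, Igf2 was the more abundant ligand transcript in each library, at 35.9 times the Igf1 level in the Cre-labelled library and 50.4 times in the GFP-labelled library. The summed ligand level per kilobase followed Igf2, and was 1.18-fold higher in the GFP-labelled library. Igf2 overlaps the antisense gene Igf2as (Igf2os in GENCODE), and since the strand setting of the counting is not given, their reads cannot be told apart. Igf2as itself, named after its value was known, had 8.37 against 8.59. GENCODE also places the protein-coding Gm49394 on the same strand over 16048 bases of Igf2, and Igf1os opposite Igf1 over 5117 bases. Neither has a row of its own in the table, and how their reads were counted is not known.

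The receptor genes were close to level. Igf1r (chromosome 7, 67952827 to 68233668, plus strand), which encodes the signalling receptor, had 11.92 in the Cre-labelled library and 11.77 in the GFP-labelled library, a difference of 0.16. Igf2r (chromosome 17, 12682406 to 12769664, minus strand), which encodes the clearance receptor, had 14.24 against 14.36, a difference of -0.12. As many as 28.2% of all genes differed by at least as much as Igf1r, and 39.1% by at least as much as Igf2r. Per kilobase of exon, the Igf2r level was 8.997 times that of Igf1r in the Cre-labelled library and 10.9 times in the GFP-labelled library. Igf2r overlaps the antisense transcript Airn over 28354 bases, and Airn had 8.66 against 8.86, so the same limit on strand holds for it. Insr, which encodes the insulin receptor that can pair with the IGF1 receptor, was chosen after its value was seen, and differed by -0.07.

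**Figure D1:**
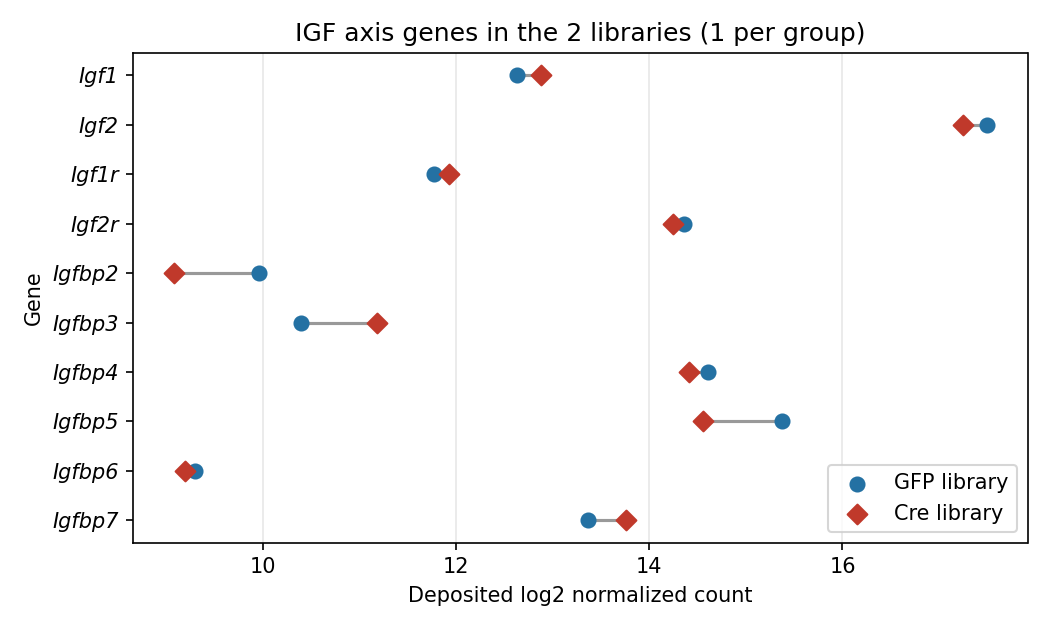
Deposited log2 normalized count (x axis) of each IGF axis gene (y axis) in the GFP-labelled library (circles) and the Cre-labelled library (diamonds), 1 library per group, joined by a line whose length is the difference. The longest lines are those of Igfbp2 (-0.89), Igfbp5 (-0.82) and Igfbp3 (0.78), and the ligand and receptor pairs nearly touch.

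Among the binding proteins, Igfbp2 and Igfbp5 were lower in the Cre-labelled library by nearly the same factor. Igfbp2, whose product binds IGF2 and IGF1 and is abundant in the fetus (chromosome 1, 72824503 to 72852474, plus strand), had 9.08 in the Cre-labelled library against 9.96 in the GFP-labelled library. Its difference of -0.89 is 1.85-fold and stood 27th from the lowest of 12809 genes. Igfbp5, whose product also binds matrix and is a major binding protein of the skeleton (chromosome 1, 72857932 to 72874884, minus strand), had 14.55 against 15.38. Its difference of -0.82 is 1.77-fold and stood 36th from the lowest. The pair are neighbours that point at each other, with a gap of 5457 bases and 0 protein-coding genes between their 3′ ends. Per kilobase of exon the Igfbp5 level was 13.7 times that of Igfbp2 in the Cre-labelled library and 13.1 times in the GFP-labelled library. The near-equal ratios restate the 2 similar differences and are not a separate result. Igfbp5 belongs to the most abundant genes and Igfbp2 does not.

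Igfbp3 and Igfbp7 were the binding protein genes that lay on the other side. Igfbp3, whose product is the main carrier of IGFs in blood and also acts locally (chromosome 11, 7206086 to 7213923, minus strand), had 11.18 in the Cre-labelled library and 10.40 in the GFP-labelled library. Its difference of 0.78 is 1.71-fold and stood 161st from the highest. Igfbp7, whose product binds IGFs weakly and is also found around blood vessels (chromosome 5, 77349240 to 77408041, minus strand), had 13.76 against 13.36, a difference of 0.40 or 1.32-fold, short of the 1.5-fold line. It stood 567th from the highest, and 7.13% of all genes differed by at least as much. The 3′ end of Igfbp7 overlaps Polr2b on the other strand by 85 bases, and Polr2b, which encodes an RNA polymerase subunit, had 11.74 in each library. The antisense gene Gm34648 overlaps Igfbp7 over 7085 bases and has no row in the table, so the limit on strand holds for Igfbp7 as well. Polr2b and Airn were named for their overlap, outside the rule for named genes.

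Igfbp4 and Igfbp6 differed by little. Igfbp4, whose product mostly restrains IGF action and is the main substrate of PAPP-A (chromosome 11, 99041244 to 99054392, plus strand), had 14.41 in the Cre-labelled library and 14.60 in the GFP-labelled library, a difference of -0.19. Igfbp6, whose product prefers IGF2 over IGF1 (chromosome 15, 102144362 to 102149511, plus strand), had 9.19 against 9.29, a difference of -0.10. By size, 21.5% of all genes differed by at least as much as Igfbp4 and 44.5% by at least as much as Igfbp6. Igfbp1, the liver-rich member of the family, has no row in the table, so it was not analysed here.

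**Figure D2:**
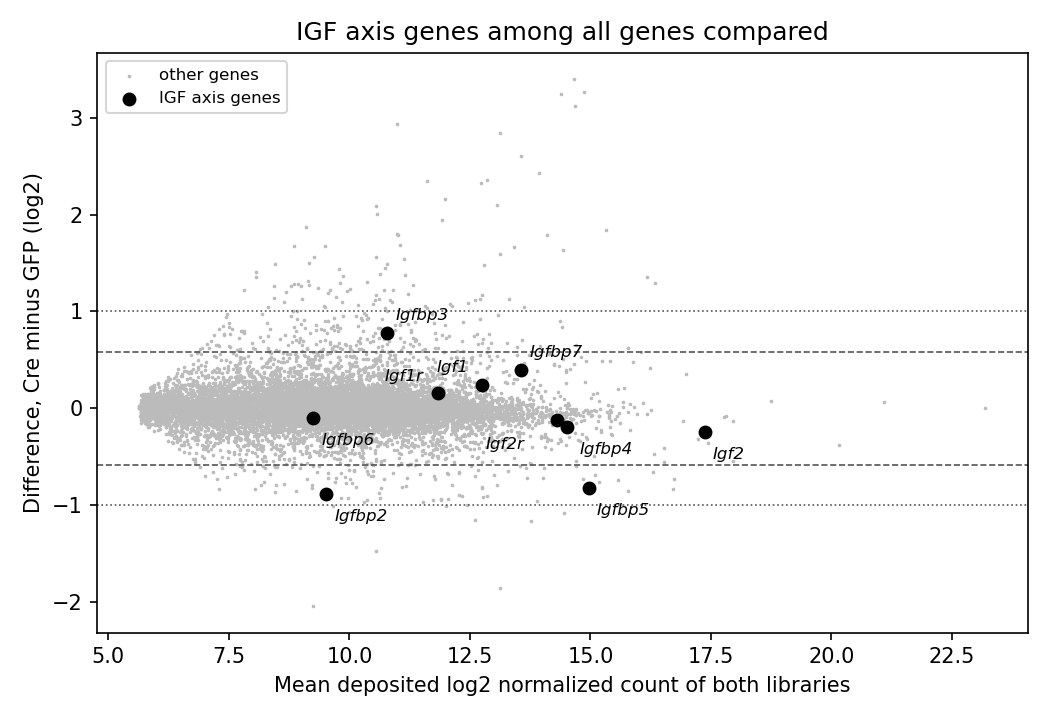
Difference between the libraries (y axis, Cre minus GFP, log2) against the mean deposited log2 normalized count of both libraries (x axis) for all 12809 genes compared (grey) and the 10 IGF axis genes (black), with dashed lines at 1.5-fold and dotted lines at 2-fold. Igfbp2, Igfbp3 and Igfbp5 lie between the 1.5-fold and 2-fold lines, and the other 7 genes lie inside the 1.5-fold lines.

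The level of a gene bears on how its difference reads. Differences spread over genes with a standard deviation (SD) of 0.15 at mean log2 values of 5.64 to 7, of 0.23 at 9 to 11 and of 0.49 at 13 or more. Igfbp2 and Igfbp3, at means of 9.52 and 10.79, lie in the range where 5% of genes were below -0.26 and 5% above 0.38. Igfbp5, Igf2, Igfbp4, Igf2r and Igfbp7 are among the 520 genes with a mean of 13 or more, of which 9.04% were past 1.5-fold in either direction and 4.04% past it downwards. Of these 520 genes 66.7% lay below 0, so the small negative differences of Igf2, Igfbp4 and Igf2r are on the common side for abundant genes.

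The makeup of the binding protein transcripts differed between the libraries more than their total did. Per kilobase of exon, Igfbp7 held 52.3% of the summed level in the Cre-labelled library and 38.0% in the GFP-labelled library. Igfbp5 held 18.2% against 30.8%, Igfbp4 22.4% against 24.5%, Igfbp3 3.36% against 1.88%, Igfbp6 2.40% against 2.46% and Igfbp2 1.33% against 2.35%. The order by level thus ran Igfbp7, Igfbp5, Igfbp4 in the GFP-labelled library and Igfbp7, Igfbp4, Igfbp5 in the Cre-labelled library. Per kilobase of exon, the Igfbp5 level was 16.4 times that of Igfbp3 in the GFP-labelled library and 5.41 times in the Cre-labelled library. The summed level per kilobase was close to equal, with a log2 difference of -0.06, while the sum of values not divided by length, in which long Igfbp5 transcripts weigh more, differed by -0.36. Without Igfbp5 the sum not divided by length differed by 0.03, so the lower sum rests on that gene. Lengths are of all annotated exons of a gene, and which transcripts the cells used is not known.

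**Figure D3:**
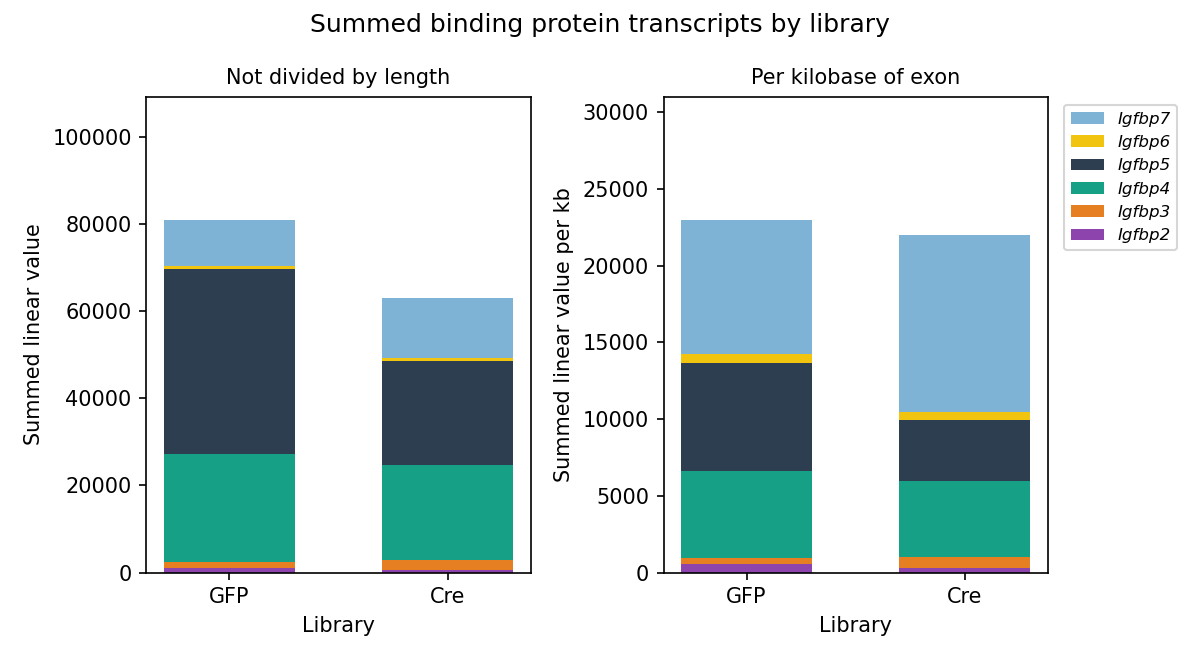
Summed linear values of the 6 binding protein genes (y axis) in the GFP-labelled library and the Cre-labelled library (x axis), stacked by gene, not divided by length (left) and per kilobase of exon (right). The Igfbp5 block is smaller and the Igfbp7 block larger in the Cre-labelled library, and the total per kilobase is nearly the same in each library (log2 difference -0.06).

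Most of the listed proteases of the binding proteins and their inhibitors were on the higher side in the Cre-labelled library, by unlike amounts. Of 16 listed proteases and protease inhibitors, 11 lay above 0, beside 49.9% of all genes, and the median was 0.20. At 1.5-fold, 4 were higher and 0 lower, where 2.25% of all genes were that much higher. The 4 were the stromelysin gene Mmp3 (9.63-fold), the collagenase gene Mmp13 (3.57-fold) and the genes of the complement proteases C1s (2.41-fold) and C1r (C1ra, 1.93-fold). Mmp3 and Mmp13 had mean log2 values of 14.87 and 15.33. Of the 520 genes with a mean of 13 or more, 26 were higher past 1.5-fold. Stromelysin and C1s are known to cut binding proteins, and matrix proteins and complement are the better known substrates of these enzymes. Pappa, which encodes PAPP-A, was chosen after its value was seen, and had 11.77 against 12.08, a difference of -0.30. The PAPP-A inhibitor genes Stc1 and Stc2, chosen in the same way, differed by 0.33 and 0.18, and are counted among the 11 above 0. The rest of the list is also named with its values known. Pappa2 (-0.10), Adam12 (-0.05), Ctsd (-0.05), Htra3 (-0.03), Htra1 (0.06) and Mmp14 (0.10) were close to level. Adam9 (0.21), Adamts1 (0.38) and Mmp2 (0.47) were higher but short of 1.5-fold. Among 11 genes for other proteins with an IGFBP-type domain, 8 lay below 0 with a median of -0.27, beside 50.1% of all genes below 0. Past 1.5-fold was 1 of the 11, where 3.2% of all genes were. Nov, a matricellular gene of the CCN family, was just past the line at -0.59. It fell short of it with libraries scaled to equal totals (-0.58 with or without Rn45s and Lars2).

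The genes that act after the receptor were mostly close to level. In the list of adaptors and feedback genes, the median was 0.06 and 14 of 21 lay above 0, beside 49.9% of all genes. Past 1.5-fold was 1 of the 21, where 3.2% of all genes were. This was Socs3, a feedback inhibitor of cytokine signalling, at 2.15-fold higher in the Cre-labelled library. The receptor substrate genes Irs1 and Irs2, chosen after their values were seen, differed by -0.33 and -0.14. In the PI3K, AKT and FOXO list the median was -0.01 over 28 genes with quartiles of -0.10 and 0.03. Akt1s1, which encodes an AKT substrate, was the 1 of these 28 past the line, where 3.2% of all genes were. It was 3.61-fold higher in the GFP-labelled library, and stood 12808th from the highest of 12809 genes. Its mean of 13.13 places it among the 520 genes at 13 or more. Of those, 9.04% were past 1.5-fold in either direction and 4.04% past it downwards. Among 9 growth hormone pathway genes, which include Igf1, 0 passed 1.5-fold, where 3.2% of all genes did. The largest differences there were -0.47 for Prlr, the prolactin receptor gene, and 0.40 for Jak2, the kinase gene of the growth hormone receptor. Ghr, the growth hormone receptor gene, lay at -0.14 and was picked once its value was known.

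**Figure D4:**
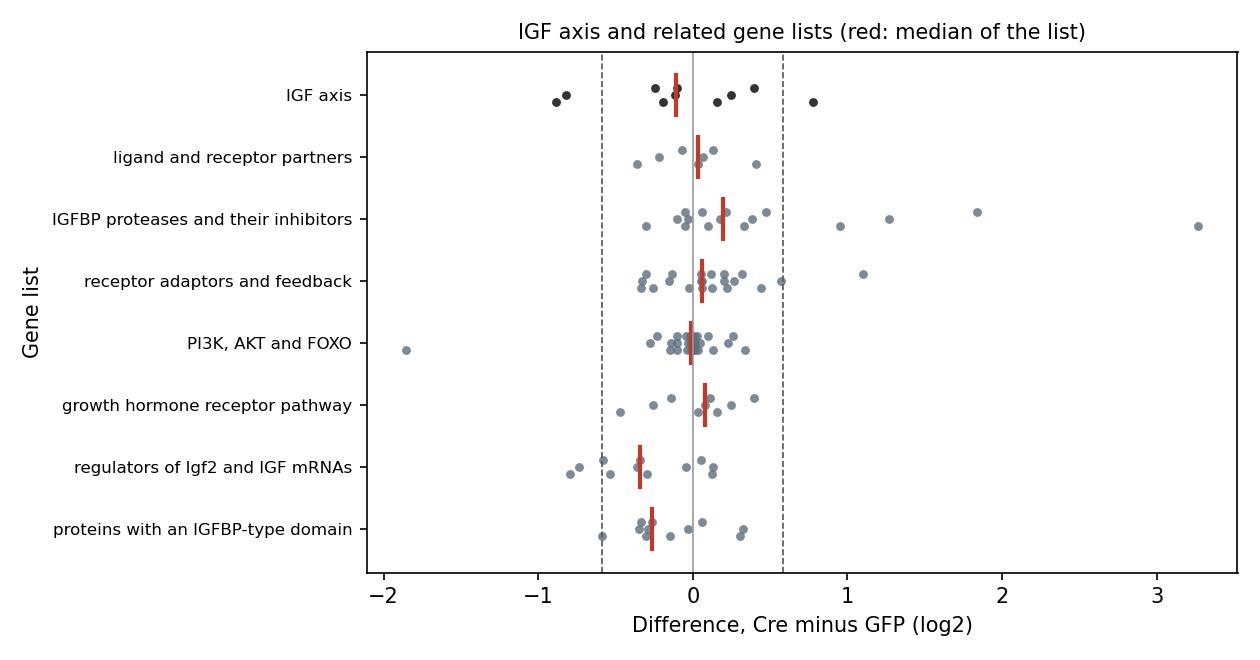
Difference between the libraries (x axis, Cre minus GFP, log2) of each gene (points) in the IGF axis and 7 related gene lists (y axis), with the median of each list in red, the median of all genes as a grey line and dashed lines at 1.5-fold. The IGF axis is spread from -0.89 to 0.78, the protease list extends to 3.27 for Mmp3, and the PI3K, AKT and FOXO list is bunched around 0 apart from Akt1s1 at -1.85.

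Most genes in the list named for regulators of Igf2 and IGF mRNAs were on the lower side. The list also holds imprinted genes such as Cdkn1c and Peg3, so it is not made of Igf2 regulators alone. The genes of the Igf2 mRNA-binding proteins were not on the lower side. Of 11 measured in this list, 8 lay below 0 with a median of -0.34, beside 50.1% of all genes below 0. At 1.5-fold, 2 were lower, where 0.952% of all genes were. These were the cell cycle inhibitor gene Cdkn1c (1.73-fold) and the zinc finger gene Peg3 (1.66-fold), both imprinted. Their means of 13.07 and 14.85 place them among the genes at 13 or more. Of those genes 4.04% were lower past 1.5-fold and 66.7% lay below 0. H19, the noncoding gene beside Igf2 that shares its enhancers, had 17.26 against 17.62, a difference of -0.36, and Igf2 differed by -0.25. The genes of the Igf2 mRNA-binding proteins, Igf2bp1, Igf2bp2 and Igf2bp3, chosen after their values were seen, differed by 0.05, 0.12 and 0.13. Of the listed partners of the ligands and receptors, which also include H19, 7 were measured. Of these 0 passed 1.5-fold, where 3.2% of all genes did. Lrp1, which encodes an endocytic receptor reported to bind IGFBP3, lay at 0.41.

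Markers of several cell types also differed. Beside the counts that follow, 49.9% of all genes compared lay above 0 and 50.1% below 0. All 8 chondrocyte markers were in the table and lay below 0, with a median of -0.48. Their log2 summed level was 20.56 in the Cre-labelled library against 21.01 in the GFP-labelled library. All of them but Sox9 had a mean of 13 or more, and of the 520 genes at that level 66.7% lay below 0. Of 11 macrophage and osteoclast markers 10 were in the table and 8 of these lay above 0, with a median of 0.24 and summed levels of 14.62 against 14.25. Adgre1 was missing there only under its newer symbol, since it is listed as Emr1. Of 7 fibroblast and perichondrial markers 3 lay above 0, with summed levels of 18.91 against 18.90. Endothelial markers were low, at summed levels of 9.35 against 9.30 over 5 genes, with Tek not in the table. The 4 measured osteoblast markers all lay below 0 (11.77 against 12.05), without Bglap2. The 3 measured muscle markers all lay above 0 (11.08 against 10.55), without Ckm and Myog. Of the 4 adipocyte markers 1, Fabp4, lay above 0 and 3 lay below, with a median of -0.07 and summed levels of 14.46 against 14.32. In bulk RNA, fewer cells of a type and less RNA per cell cannot be told apart, and the part of cell makeup in the differences of Igfbp2, Igfbp3, Igfbp5, Igfbp7 and Igf1 was not tested.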

How the data were processed

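RNA was measured in 2 libraries, 1 from a micromass culture given Cre adenovirus and 1 from a culture given GFP adenovirus. Per the labels' protocols, RNA was taken with TRIzol and libraries made with TruSeq v2 mRNA. Build mm10 and the tools TopHat2 2.0.6, HTSeq and bcl2fastq 1.8.4 come from the submitters' processing notes. Strand setting and annotation: not given in the sources used here. The authors deposited log2 normalized counts for 13138 genes. A regularized log, which shrinks differences at low read numbers, was inferred from a column heading and from the narrow spread at low levels, so such differences may be understated. The deposited difference is GFP minus Cre and was turned to Cre minus GFP. Column values of any other sample: none.

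Compared were genes whose mean reached 50 on the count scale. They were called by size alone at 1.5-fold and 2-fold. No test was possible with 1 library per group, and depth, counting error and detection limits are unknown. Linear values were 2 to the power of the deposited value, divided by GENCODE M21 exon length (GRCm38) for levels between genes. Named were all 10 axis genes, and of each of 7 further lists the members past 1.5-fold, up to 6, or the 2 largest where none was. Genes outside this rule are marked in the text. The genes, lists and start-site words were chosen with earlier results of these data known. Counting was tested on simulated differences. Python 3.11.15, pandas 2.3.3 and numpy 2.4.6 were used. Scaling, minimum, threshold, summary and length were varied.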

Additional observations from a re-analysis of the deposited data

How the results depend on the processing

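Scaling moved every difference alike, by at most 0.015, and changed the sign of 0 of the 10 axis differences. With no minimum and with a minimum 10 times higher, all 10 genes stayed, so their counts and median did not move. The mean in place of the median gave -0.079 against -0.11. The summed binding protein difference of -0.36 became -0.064 per kilobase of exon, -0.067 per kilobase of the longest transcript (an alternative chosen after seeing the data) and 0.025 without Igfbp5. Length and Igfbp5 each moved the sum: without Igfbp5 it was 0.18 per kilobase of exon. Across all genes, 103 passed 2-fold and 16 passed 4-fold. Of 143 alternative values, the other 139 stayed within 0.1 on the log2 scale or, for counts, within 1.5 times. Scaling shifted log2 values by at most 0.015, so it could not move one past 0.1, and those values are no check of stability. The Nov difference counts as within 0.1 although it crossed the 1.5-fold line. Pseudocounts were not run, since the table holds log2 values. No paired analysis was possible because there is only 1 library in either group. Unknown depth limits every value: counting error cannot be given, and genes of low level may have shrunken differences.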
